A study of Mus musculus with 6 samples.

Results

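The G1 cyclins and CDK inhibitors described here are *Ccnd1*, *Ccnd2*, *Ccnd3*, *Cdk4*, *Cdk6*, *Cdkn1b*, *Cdkn2a*, *Cdkn2b*, *Cdkn2c* and *Rb1*, chosen by name as the D-type cyclins, their kinases, inhibitors of these kinases and the substrate RB1. Each symbol matched 1 row of the expression table, so that all 10 of the 10 genes were found among 18112 genes. RNA-seq was performed on primary VSMCs, smooth muscle cells cultured from mouse aorta, to ask how loss of the lysine methyltransferase SMYD2 alters their transcriptome. The 3 *Smyd2* fl/fl control samples, labelled Flox and called controls below, came from C57BL/6 mice carrying floxed *Smyd2* alleles, and the 3 *Smyd2* SMC-/- samples, labelled SMYD2 KO and called knockouts below, came from C57BL/6 mice in which an SM22α-Cre (Tagln-Cre) transgene deletes *Smyd2*. The mice were 8 to 10 weeks old according to the methods of the study, and no drug or growth factor is named for these samples. Culture conditions, which bear directly on G1 genes, are given in conflicting ways: the labels state passage 6 in DMEM with 10% FBS and a Promega extraction kit, whereas the methods state passage 4, overnight starvation and TRIzol. Tagln-Cre is also active in other cell types. For data of every kind the methods state at least 3 independent experiments. Neither the labels nor the methods say how many animals or cultures the 3 samples of a genotype come from. The p-values therefore measure the spread between these samples only, which may be technical. Expression is given as FPKM, the fragments of a gene scaled by transcript length and by all mapped fragments, which allows levels to be compared between genes.

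D-type cyclins are made in response to mitogens, bind CDK4 or CDK6, and phosphorylate the retinoblastoma protein RB1, which releases E2F factors and starts the genes of S phase. The INK4 proteins p16Ink4a, p15Ink4b and p18Ink4c (*Cdkn2a*, *Cdkn2b* and *Cdkn2c*) bind CDK4 and CDK6 and block cyclin D binding, while p27Kip1 (*Cdkn1b*) and p21Cip1 (*Cdkn1a*) act mainly on CDK2 complexes. In arteries, medial VSMCs are largely quiescent, with high p27Kip1, and enter G1 after injury or when placed in culture with serum.

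*Smyd2* (NCBI Gene 226830) was examined first as a check of the labels. Its level was 7.87, 3.10 and 3.0 FPKM in control replicates 1, 2 and 3, and 1.67, 0.40 and 0.80 FPKM in the matching knockout replicates. No knockout value reached the lowest control value, although replicate 1 was the highest in both groups. The log2 fold change of FPKM + 1 was −1.48 (standard error 0.389, limma adjusted p = 0.105), and adding a block for replicate number to the limma fit gave an adjusted p of 0.0189.

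Cell identity was checked against marker genes. Of 8 smooth muscle markers, *Acta2* was abundant and *Tagln* lay between 12.5 and 87.3 FPKM, and *Smtn*, *Cnn1* and *Lmod1* were detected in every library (45.9 to 63.1, 2.70 to 21.0 and 1.22 to 6.02 FPKM). *Myh11* and *Myocd*, the most specific of the list, stayed at or below 0.22 and 0.48 FPKM. The summed level of the 8 markers was 922, 821 and 814 FPKM in control replicates 1, 2 and 3, and 263, 429 and 377 FPKM in the matching knockout replicates. Most of this sum was *Acta2*, at 761, 682 and 683 FPKM in controls 1, 2 and 3, against 201, 268 and 262 FPKM in knockouts 1, 2 and 3. Of the 8 markers, 5 could be tested and 1 was called, *Acta2*, which fell in *Smyd2* SMC-/- (log2 fold change −1.55, limma adjusted p = 0.00803). *Lmod1* was lower in knockout 1 (3.28 to 1.22 FPKM) and higher in knockouts 2 and 3 (2.71 to 5.44 and 2.83 to 6.02 FPKM). In replicates 2 and 3 alone *Lmod1* rose (log2 fold change 0.835, limma adjusted p = 0.00335). The median of the 5 tested markers was −0.074 there, against −0.908 with all libraries. Fibroblast and adventitial markers were also expressed. According to the methods, the endothelium was denuded and the adventitia taken off before culture, and each batch was stained for smooth muscle α-actin. Their 6 genes, of which *Dcn* had the highest mean over all libraries, summed to 229.7, 819.7 and 688.6 FPKM in controls 1, 2 and 3, against 77.7, 548 and 499.8 FPKM in knockouts 1, 2 and 3. *Dpt* was called among them, with 143.9, 90.3 and 65.5 FPKM in controls 1, 2 and 3, against 3.31, 1.15 and 0.63 FPKM in knockouts 1, 2 and 3 (log2 fold change −5.28, limma adjusted p = 0.00417), and with the replicate block *Ly6a* was called lower as well (limma adjusted p = 0.0404). Other genes of this list went the other way: *Dcn* was higher in the knockout of all 3 pairs (13.9 to 25.6, 311 to 383 and 257 to 350.4 FPKM, limma adjusted p = 0.890), and *Lum* rose in replicates 2 and 3 alone (log2 fold change 2.57, limma adjusted p = 7.4e-05). *Ly6a* and *Lum* were named after their values were seen. The defining markers of endothelium (*Cdh5*, *Tie1*) and leukocytes (*Ptprc*) were at or below 0.02 FPKM in all 6 libraries. Endothelial markers summed to at most 5.41 FPKM, with *Kdr* higher in every knockout (0.96 to 5.15 FPKM) than in any control (0.47 to 0.84 FPKM) and *Pecam1*, named after its values were seen, the reverse (at most 0.18 against 0.56 to 0.92 FPKM), and macrophage and leukocyte markers to between 18.3 and 42.6 FPKM, most of it *Cd14*. Cardiomyocyte markers summed to between 4.18 and 29.8 FPKM, with *Tnnt2* the highest in the controls and *Myl7* in knockouts 2 and 3. Epithelial markers, led by *Cdh1*, summed to between 0.99 and 13.5 FPKM. The Y-linked genes *Eif2s3y* and *Uty* summed to at most 0.10 FPKM. Some listed genes had no row in the expression table and are not in these sums: the Y-linked *Ddx3y* and *Kdm5d*, the cardiomyocyte markers *Myh6* and *Actc1*, and the endothelial marker *Cldn5*. None of the tested genes of the endothelial, leukocyte, cardiomyocyte and epithelial lists (1, 4, 2 and 1 genes) was called by limma, with or without the replicate block. In replicates 2 and 3 alone, however, where 29.0% of all tested genes were called, 6 of these 8 were called (*Kdr*, *Csf1r* and *Myl7* higher, *Lyz2*, *Tnnt2* and *Cdh1* lower). So were 5 of 6 fibroblast markers (4 lower, 1 higher) and 2 of 5 smooth muscle markers (*Acta2* lower, *Lmod1* higher). Calls of G1 genes in that fit thus stand beside calls of cell-type markers. The same holds for the block that sets replicate 1 apart, in which *Ccnd3* was called, as were 20.3% of all tested genes. There *Kdr*, *Csf1r* and *Myl7* were called higher, *Acta2* was called lower, and 6 of 6 fibroblast markers were called (4 lower, 2 higher). The part that these marker levels play in the values of the G1 genes was not tested, and because the samples are bulk RNA, fewer cells of a kind and less RNA per cell cannot be told apart.

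Replicate 1 stood apart from replicates 2 and 3 in both genotypes. Deviations from the group mean correlated across genes by 0.61 between the replicate 1 libraries of the 2 genotypes, and by between −0.56 and −0.51 between a replicate 1 library and a replicate 2 or 3 library of the other genotype. The deviations within a genotype cancel out, so the negative values follow largely from the positive value and add little to it. Because replicate 1 stood apart, each result of a G1 gene is given for all 6 libraries and for replicates 2 and 3 alone. Library depth, worked out approximately from the spacing of low values, was about 17400000, 18550000 and 18450000 fragments in *Smyd2* fl/fl replicates 1, 2 and 3 and about 16050000, 18350000 and 18150000 in *Smyd2* SMC-/-. At this depth the least covered value of a G1 gene, *Cdkn2b* in *Smyd2* SMC-/- replicate 1, rests on roughly 140 fragments, for which counting error alone is about 8.46%.

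Genotypes were compared by limma on log2(FPKM + 1). Tested were 12565 genes whose average reached 0.5 FPKM or more, which included all 10 G1 genes, and genes were called at an adjusted p under 0.05. Of all tested genes 306 were called (2.44%), 152 lower (1.21%) and 154 higher (1.23%) in *Smyd2* SMC-/-, or 99 lower and 247 higher after rescaling to TPM, a rescaling that raised the median of all tested genes by 0.11 on the log2 scale. None of the 10 G1 genes was called by limma (0 of 10), and 1 of them, *Ccnd3*, had an unadjusted p under 0.05, as had 2556 of all 12565 tested genes. With the replicate block 1312 genes were called (10.4%, 5.72% lower and 4.72% higher), and again 0 of the 10 G1 genes, with 3 (*Ccnd2*, *Ccnd3* and *Cdkn2c*) at an unadjusted p under 0.05, beside 4028 of all tested genes. In replicates 2 and 3 alone 3650 genes were called (29.0%), among them 6 of the 10 G1 genes, 4 lower (17.2% of all tested genes were called lower) and 2 higher (11.9%). When a block set replicate 1 apart from the others, 1 of the 10 was called, *Ccnd3*, against 20.3% of all tested genes (11.1% lower and 9.17% higher). The groups did not overlap for 1 of the 10 G1 genes, *Ccnd3*, compared with 28.1% of all tested genes (15.0% with *Smyd2* SMC-/- lower and 13.1% with it higher). Past the cutoffs in the methods of the study, a fold change above 2 with an adjusted p under 0.01, limma placed 53 of all tested genes and 0 of the 10. With 10 genes, 0 calls is close to what the background shares give without a block and with the replicate block, and the difference between 6 of 10 and 29.0% in replicates 2 and 3 alone was not tested.

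**Figure D1:**
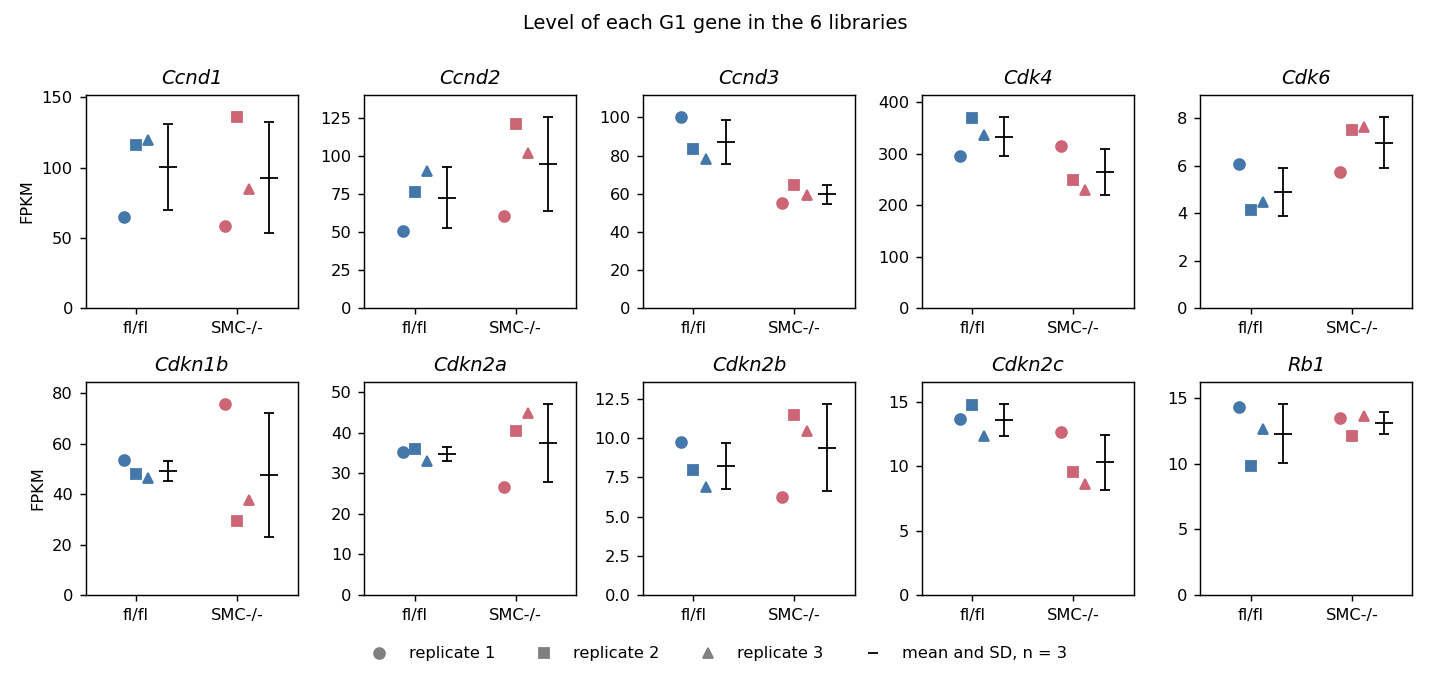
FPKM of the 10 G1 genes in each of the 6 libraries, with 1 panel per gene, a vertical axis from 0 and 1 point per library, shaped by replicate number, and the mean ± SD of 3 libraries beside them. *Ccnd3* is the gene whose 3 Smyd2 SMC-/- values, from 54.9 to 64.5 FPKM, all lie below the 3 Smyd2 fl/fl values, from 78.0 to 100 FPKM, while for *Cdkn1b* the replicate 1 library of Smyd2 SMC-/- is the highest of all at 75.6 FPKM.

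All 3 D-type cyclins were abundant, and *Ccnd3* was the one that separated the genotypes. *Ccnd1* (NCBI Gene 12443, chromosome 7 from 144929931 to 144939831 of GRCm38.p6) encodes cyclin D1, the classical mitogen-induced cyclin. Its level was 65.0, 116 and 119.5 FPKM in control replicates 1, 2 and 3, and 58.5, 136 and 84.5 FPKM in the matching knockout replicates. Replicate 1 was the lowest library of each group, the highest and the lowest of the 6 values both belonged to *Smyd2* SMC-/-, and the groups overlapped. The means were 100.2 ± 30.6 and 92.9 ± 39.3 FPKM (SD, n = 3 each), and the log2 fold change was −0.14 (standard error 0.363, limma adjusted p = 0.881). Its direction turned without *Smyd2* fl/fl replicate 3 (log2 fold change 0.012) and without *Smyd2* SMC-/- replicate 1 (0.15), and it was −0.14 in replicates 2 and 3 alone (limma adjusted p = 0.672).

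*Ccnd2* (NCBI Gene 12444, chromosome 6 from 127125162 to 127152188) encodes cyclin D2. Its 3 *Smyd2* fl/fl libraries gave 50.8, 76.5 and 90.4 FPKM and its 3 *Smyd2* SMC-/- libraries 60.7, 121 and 102 FPKM, in the order of replicates 1, 2 and 3. Within each replicate number the *Smyd2* SMC-/- library was the higher one, but replicate 1 of *Smyd2* SMC-/- lay below replicates 2 and 3 of *Smyd2* fl/fl, so the groups overlapped. On the log2 scale, the fold change was 0.36 (standard error 0.315, limma adjusted p = 0.589), against 0.36 with a standard error of 0.129 and an adjusted p of 0.134 with the replicate block. With replicate 1 left out of both groups, limma gave 0.41 with an adjusted p of 0.0513, just above the threshold. Leaving out 1 library at a time moved the unblocked value between 0.13 and 0.65.

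*Ccnd3* (NCBI Gene 12445, chromosome 17 from 47505051 to 47599689) encodes cyclin D3, a D cyclin that is widely expressed and less bound to mitogen supply than cyclin D1. Its level was 100, 83.2 and 78.0 FPKM in control replicates 1, 2 and 3, and 54.9, 64.5 and 59.3 FPKM in the matching knockout replicates. The highest knockout value stayed under the lowest control value, and replicate 1 gave both the highest control value and the lowest knockout value (exact permutation p = 0.1, two-sided, as low as 3 against 3 samples can give). The means were 87.1 ± 11.5 and 59.6 ± 4.77 FPKM (SD, n = 3 each), a ratio of 0.684. The log2 fold change of −0.53 (standard error 0.141) had an adjusted p of 0.105 in limma, and 0.0663 with the replicate block. In replicates 2 and 3 alone it was −0.38 with an adjusted p of 0.0317, and when a block set replicate 1 apart from the others the adjusted p was 0.0301, so that *Ccnd3* was called lower by limma in both of these fits.

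*Ccnd3* has 2 annotated promoters, and both are shown because the deposited row adds up the transcripts of the gene. RefSeq promoter windows of GRCm38.p6 around annotated transcription starts, 300 bases long, were given for 7 of the 10 genes. They were searched on both strands for the E2F motifs TTTCCCGC, TTTGGCGC, TTTCGCGC and TTTGCCGC, for the E box CACGTG, for the GC box GGGCGG and for the CArG box. Of all 32851 windows of this length 2.27% held an E2F motif, 7.15% the E box, 35.7% the GC box and 1.63% the CArG box. Capitals mark every match. The upstream window (chr17:47504801-47505100, plus strand) serves 2 RefSeq transcripts and the downstream window (chr17:47593217-47593516, plus strand) serves 1, and each holds 2 GC boxes and none of the other motifs.
Ccnd3 upstream promoter: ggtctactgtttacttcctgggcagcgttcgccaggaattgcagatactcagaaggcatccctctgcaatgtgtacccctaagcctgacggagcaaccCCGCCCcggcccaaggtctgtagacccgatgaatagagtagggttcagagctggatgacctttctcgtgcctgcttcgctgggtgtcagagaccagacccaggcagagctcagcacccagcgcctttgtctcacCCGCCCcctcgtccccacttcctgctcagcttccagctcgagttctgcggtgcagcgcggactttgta
Ccnd3 downstream promoter: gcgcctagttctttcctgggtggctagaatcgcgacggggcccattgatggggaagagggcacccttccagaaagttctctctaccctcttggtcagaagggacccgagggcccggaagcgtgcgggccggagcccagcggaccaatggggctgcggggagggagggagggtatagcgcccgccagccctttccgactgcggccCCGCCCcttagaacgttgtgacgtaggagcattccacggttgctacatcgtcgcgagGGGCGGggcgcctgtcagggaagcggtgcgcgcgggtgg

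The make-up of the D cyclin pool differed more evenly than its size. The 3 D cyclins summed to 216, 276 and 288 FPKM in controls 1, 2 and 3, against 174, 321 and 246 FPKM in knockouts 1, 2 and 3, so that *Smyd2* SMC-/- held both the smallest and the largest sum. *Ccnd2* made up 23.6, 27.8 and 31.4% of this sum in controls 1, 2 and 3, against 34.8, 37.7 and 41.5% in knockouts 1, 2 and 3. Every *Smyd2* SMC-/- library had a larger *Ccnd2* share than every *Smyd2* fl/fl library, with means of 27.6 ± 3.92% and 38.0 ± 3.36% (SD, n = 3 each). The share of *Ccnd3* was 46.3, 30.2 and 27.1% in controls 1, 2 and 3, against 31.6, 20.1 and 24.1% in knockouts 1, 2 and 3. Within each replicate number it was lower in *Smyd2* SMC-/-, but the groups overlapped, because replicate 1 had the largest share in each group and knockout 1 exceeded controls 2 and 3. *Ccnd1* held 37.9 ± 6.76% and 36.7 ± 4.79% of the sum (SD, n = 3 each), with overlapping groups. Being shares of 1 sum, these 3 values are not independent of each other, and no test was made.

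**Figure D2:**
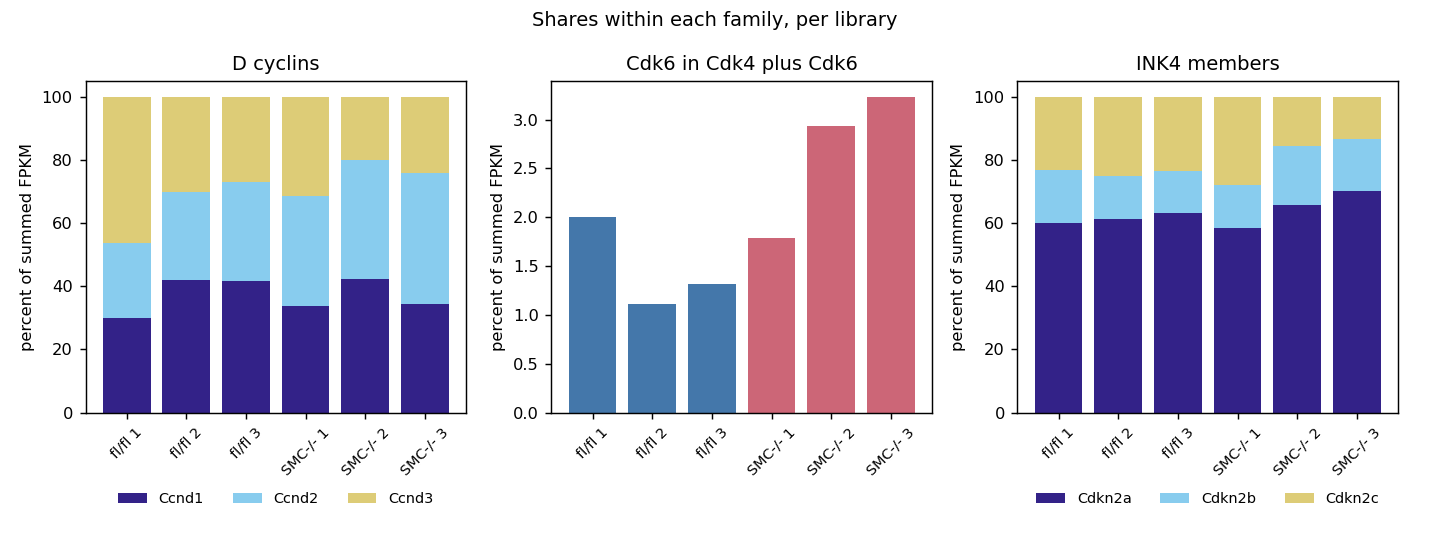
Percent of summed FPKM held by each gene in every library for the D cyclins and for *Cdkn2a*, *Cdkn2b* and *Cdkn2c* (stacked bars), and by *Cdk6* within *Cdk4* plus *Cdk6* (single bars, axis from 0 to about 3.4%). The *Ccnd2* band is wider in each knockout library than in any control library, and the *Cdk6* share is largest in Smyd2 SMC-/- replicates 2 and 3.

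Of the kinases, *Cdk4* was the most abundant of all 10 genes and *Cdk6* the least. *Cdk4* (NCBI Gene 12567, chromosome 10 from 127063535 to 127067288) was measured at 295, 369 and 336 FPKM in control replicates 1, 2 and 3, and 315, 249 and 229 FPKM in the matching knockout replicates. Replicates 2 and 3 of *Smyd2* SMC-/- were the lowest of the 6 libraries, while replicate 1 of *Smyd2* SMC-/- exceeded replicate 1 of *Smyd2* fl/fl, so the groups overlapped. With all libraries the log2 fold change was −0.34 (standard error 0.167, limma adjusted p = 0.307), or −0.22 after rescaling to TPM and −0.16 after quantile normalization. With replicate 1 left out of both groups, *Cdk4* fell in *Smyd2* SMC-/- (−0.56 ± 0.121 on the log2 scale, standard error, limma adjusted p = 0.0129).

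The *Cdk4* promoter window (chr10:127063285-127063584, plus strand) is shown for its E boxes, the sites that MYC-family proteins can bind. CACGTG occurs 4 times in it, beginning at positions −172, −118, −98 and −11 from the start, and 8 of all 32851 windows (0.0244%) hold 4 or more. It also holds 3 matches to the GC box.
Cdk4 promoter: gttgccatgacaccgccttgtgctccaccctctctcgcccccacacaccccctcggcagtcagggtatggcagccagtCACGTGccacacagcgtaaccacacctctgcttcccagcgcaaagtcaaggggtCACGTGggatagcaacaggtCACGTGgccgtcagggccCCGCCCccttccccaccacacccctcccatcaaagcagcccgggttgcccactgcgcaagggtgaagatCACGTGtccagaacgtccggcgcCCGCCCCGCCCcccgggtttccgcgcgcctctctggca
*Myc* itself measured 38.8, 27.9 and 29.3 FPKM in controls 1, 2 and 3, against 19.1, 24.2 and 21.4 FPKM in knockouts 1, 2 and 3. Its groups did not overlap, with lower values in *Smyd2* SMC-/-, but it was not called by limma (log2 fold change −0.54, adjusted p = 0.147, or 0.105 with the replicate block and 0.0566 in replicates 2 and 3 alone). Any relation between the motif and these values was not tested.

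*Cdk6* (NCBI Gene 12571, chromosome 5 from 3341004 to 3531008), the second kinase partner of D cyclins, had 6.05, 4.14 and 4.47 FPKM in controls 1, 2 and 3, against 5.73, 7.51 and 7.64 FPKM in knockouts 1, 2 and 3. Replicates 2 and 3 of *Smyd2* SMC-/- were the highest of the 6 libraries, and the replicate 1 libraries of the genotypes differed little, with the control slightly above the knockout. On the log2 scale, the fold change was 0.44 (standard error 0.189, limma adjusted p = 0.259). In replicates 2 and 3 alone *Cdk6* rose in *Smyd2* SMC-/- (0.69 ± 0.117 on the log2 scale, standard error, limma adjusted p = 0.00502), the smallest adjusted p of the 10 genes in that fit. As a share of *Cdk4* plus *Cdk6*, *Cdk6* was 2.01, 1.11 and 1.31% in controls 1, 2 and 3, against 1.79, 2.93 and 3.23% in knockouts 1, 2 and 3. Its share was thus above 2.9% in replicates 2 and 3 of *Smyd2* SMC-/- only, and in every library *Cdk4* RNA exceeded *Cdk6* RNA by far. The deposited row of *Cdk6* includes a transcript assembled by the authors besides the RefSeq transcript.

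**Figure D3:**
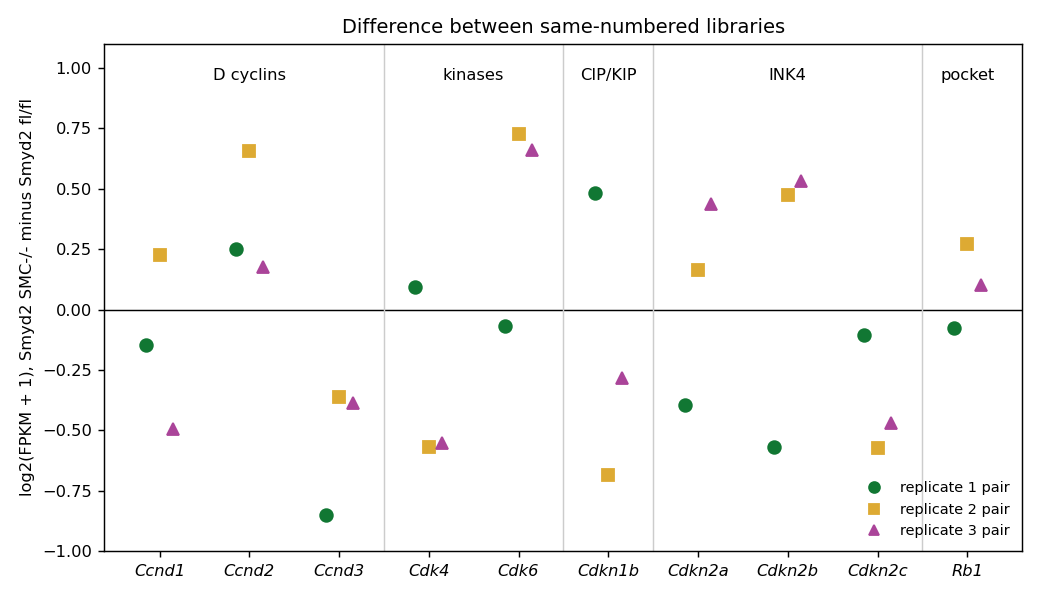
Difference in log2(FPKM + 1) between the Smyd2 SMC-/- and the Smyd2 fl/fl library of the same replicate number, with 3 points per gene shaped and coloured by replicate number and genes ordered by role; points above 0 are higher in Smyd2 SMC-/-. The replicate 1 points of *Cdk4*, *Cdk6*, *Cdkn1b*, *Cdkn2a*, *Cdkn2b* and *Rb1* lie across the zero line from both other points.

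The CIP/KIP inhibitor *Cdkn1b* differed between replicates in direction. *Cdkn1b* (NCBI Gene 12576, chromosome 6 from 134920401 to 134925525) encodes p27Kip1, which holds quiescent cells in G0 and is regulated in large part by protein turnover. Its level was 53.8, 47.9 and 46.4 FPKM in control replicates 1, 2 and 3, and 75.6, 29.4 and 37.9 FPKM in the matching knockout replicates. The control libraries lay close together, whereas the *Smyd2* SMC-/- libraries lay on either side of them, with replicate 1 above all 3 controls and replicates 2 and 3 below all 3. The means of 49.4 ± 3.90 and 47.7 ± 24.6 FPKM (SD, n = 3 each) therefore hide values that point in opposite directions, and the log2 fold change was −0.16 (standard error 0.33, limma adjusted p = 0.842). Without *Smyd2* SMC-/- replicate 2 it turned to 0.12, and in replicates 2 and 3 alone *Cdkn1b* fell in *Smyd2* SMC-/- (log2 fold change −0.49, limma adjusted p = 0.0292). Its row, too, includes transcripts assembled by the authors.

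*Cdkn1a*, which encodes p21Cip1, a p53 target and the most abundant of the other CDK inhibitors, behaved alike in all replicates. It measured 159, 162 and 154 FPKM in controls 1, 2 and 3, against 223, 252 and 222 FPKM in knockouts 1, 2 and 3. Every *Smyd2* SMC-/- library lay above every *Smyd2* fl/fl library, by a ratio of means of 1.47. The log2 fold change was 0.55 (standard error 0.115, limma adjusted p = 0.0638), and *Cdkn1a* was called higher by limma with the replicate block (adjusted p = 0.0371) and in replicates 2 and 3 alone (0.0104), and also without a block after rescaling to TPM (0.0326) or quantile normalization (0.0348). *Cdkn2d*, the gene of p19Ink4d, had overlapping values from 6.91 to 10.6 FPKM (log2 fold change 0.10, limma adjusted p = 0.821). *Cdkn1c*, the gene of p57Kip2, stayed at or below 0.98 FPKM and was not tested.

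The INK4 genes *Cdkn2a* and *Cdkn2b* are neighbours on chromosome 4, and in both the replicate 1 pair differed in the opposite direction from the other pairs. *Cdkn2a* (NCBI Gene 12578, chromosome 4 from 89274473 to 89294619) produces p16Ink4a and, from its own promoter and in another reading frame, p19Arf, which stabilises p53. Its deposited value adds up both transcripts and could not be split. Its level was 35.3, 36.0 and 32.9 FPKM in controls 1, 2 and 3, against 26.5, 40.5 and 44.9 FPKM in knockouts 1, 2 and 3. Replicate 1 of *Smyd2* SMC-/- lay below all 3 controls and replicates 2 and 3 above all 3. On the log2 scale, the fold change was 0.068 (standard error 0.205, limma adjusted p = 0.899), and in replicates 2 and 3 alone 0.30 (limma adjusted p = 0.0692). Without *Smyd2* SMC-/- replicate 2 or replicate 3 it became −0.006 or −0.079.

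*Cdkn2b* (NCBI Gene 12579, chromosome 4 from 89306289 to 89311032) encodes p15Ink4b, a CDK4 and CDK6 inhibitor induced by TGF-β. It measured 9.78, 7.96 and 6.91 FPKM in controls 1, 2 and 3, against 6.26, 11.5 and 10.4 FPKM in knockouts 1, 2 and 3. Here again replicate 1 of *Smyd2* SMC-/- was the lowest of the 6 libraries and replicates 2 and 3 were the highest. With all libraries the log2 fold change was 0.15 (standard error 0.244, limma adjusted p = 0.798), and it was −0.004 without *Smyd2* SMC-/- replicate 2. With replicate 1 left out of both groups, *Cdkn2b* rose in *Smyd2* SMC-/- (0.50 ± 0.119 on the log2 scale, standard error, limma adjusted p = 0.0181).

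The promoters of these neighbours are shown because *Cdkn2a* has 2 starts behind 1 measured value and because the replicate 1 pair went against the others in both genes. All 3 windows are on the minus strand: chr4:89294570-89294869 at the start of the p19Arf transcript, chr4:89282143-89282442 at the start of the p16Ink4a transcript, and chr4:89310983-89311282 for *Cdkn2b*. The p19Arf window holds the E2F motif TTTCCCGC, beginning at position −99, and 3 GC boxes, and is 77.0% G or C. The p16Ink4a window and the *Cdkn2b* window hold 1 GC box each and no E2F motif, with 60.3% and 57.7% G or C. The p19Arf match is the only E2F match in the windows of the 7 genes.
Cdkn2a p19Arf promoter: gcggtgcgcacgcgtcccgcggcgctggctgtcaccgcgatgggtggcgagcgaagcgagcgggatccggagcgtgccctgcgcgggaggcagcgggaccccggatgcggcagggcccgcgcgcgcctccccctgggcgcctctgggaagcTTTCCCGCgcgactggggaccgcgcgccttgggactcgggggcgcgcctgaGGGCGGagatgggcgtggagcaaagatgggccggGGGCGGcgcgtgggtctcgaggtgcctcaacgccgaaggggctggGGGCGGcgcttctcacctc
Cdkn2a p16Ink4a promoter: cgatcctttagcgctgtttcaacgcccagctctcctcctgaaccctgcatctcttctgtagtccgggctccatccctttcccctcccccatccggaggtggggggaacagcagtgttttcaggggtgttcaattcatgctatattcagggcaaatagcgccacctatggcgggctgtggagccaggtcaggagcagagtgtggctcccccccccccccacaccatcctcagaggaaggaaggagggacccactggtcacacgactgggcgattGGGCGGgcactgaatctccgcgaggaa
Cdkn2b promoter: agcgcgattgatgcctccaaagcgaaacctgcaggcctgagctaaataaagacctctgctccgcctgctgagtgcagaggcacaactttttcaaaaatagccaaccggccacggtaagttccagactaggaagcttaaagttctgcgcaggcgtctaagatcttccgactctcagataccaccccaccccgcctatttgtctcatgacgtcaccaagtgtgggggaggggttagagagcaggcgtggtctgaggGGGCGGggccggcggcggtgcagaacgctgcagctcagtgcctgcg

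*Cdkn2c* (NCBI Gene 12580, chromosome 4 from 109660876 to 109666756) encodes p18Ink4c and lies apart from *Cdkn2a* and *Cdkn2b* on the same chromosome. It differed in the opposite direction from them in replicates 2 and 3, whereas in the replicate 1 pair it was lower, as they were. Its level was 13.7, 14.7 and 12.3 FPKM in controls 1, 2 and 3, against 12.7, 9.59 and 8.62 FPKM in knockouts 1, 2 and 3. Within each replicate number the *Smyd2* SMC-/- library was the lower one, and the groups overlapped only through its replicate 1, which lay just above replicate 3 of *Smyd2* fl/fl. The log2 fold change was −0.38 (standard error 0.172, limma adjusted p = 0.280, or 0.127 with the replicate block). In replicates 2 and 3 alone *Cdkn2c* fell in *Smyd2* SMC-/- (log2 fold change −0.52, limma adjusted p = 0.0187). *Cdkn2a*, *Cdkn2b* and *Cdkn2c*, without *Cdkn2d*, summed to 56.5 ± 3.81 FPKM in *Smyd2* fl/fl and 57.0 ± 10.1 FPKM in *Smyd2* SMC-/- (SD, n = 3 each). Of this sum *Cdkn2c* held 23.3, 25.1 and 23.6% in controls 1, 2 and 3, against 27.9, 15.6 and 13.5% in knockouts 1, 2 and 3, and *Cdkn2a* held between 58.4 and 70.2% in every library. The share of *Cdkn2c* in *Smyd2* SMC-/- was thus the highest of all libraries in replicate 1 and the lowest in replicates 2 and 3.

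*Rb1* (NCBI Gene 19645, chromosome 14 from 73192858 to 73325951), the gene of the retinoblastoma protein, had overlapping values. It measured 14.3, 9.87 and 12.6 FPKM in controls 1, 2 and 3, against 13.5, 12.1 and 13.6 FPKM in knockouts 1, 2 and 3. The *Smyd2* SMC-/- values lay inside the range of the controls. On the log2 scale, the fold change was 0.099 (standard error 0.164, limma adjusted p = 0.795), 0.19 in replicates 2 and 3 alone (adjusted p = 0.343) and −0.038 without *Smyd2* fl/fl replicate 2. The other pocket proteins, *Rbl1* (p107) and *Rbl2* (p130), had means of 4.54 and 18.4 FPKM in *Smyd2* fl/fl and of 4.37 and 16.8 FPKM in *Smyd2* SMC-/-, and 0 of these 2 genes was called by limma in any of the fits given here, with 0 at an unadjusted p under 0.05. *Rbl2* was therefore expressed at a level above that of *Rb1* in both genotypes.

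**Figure D4:**
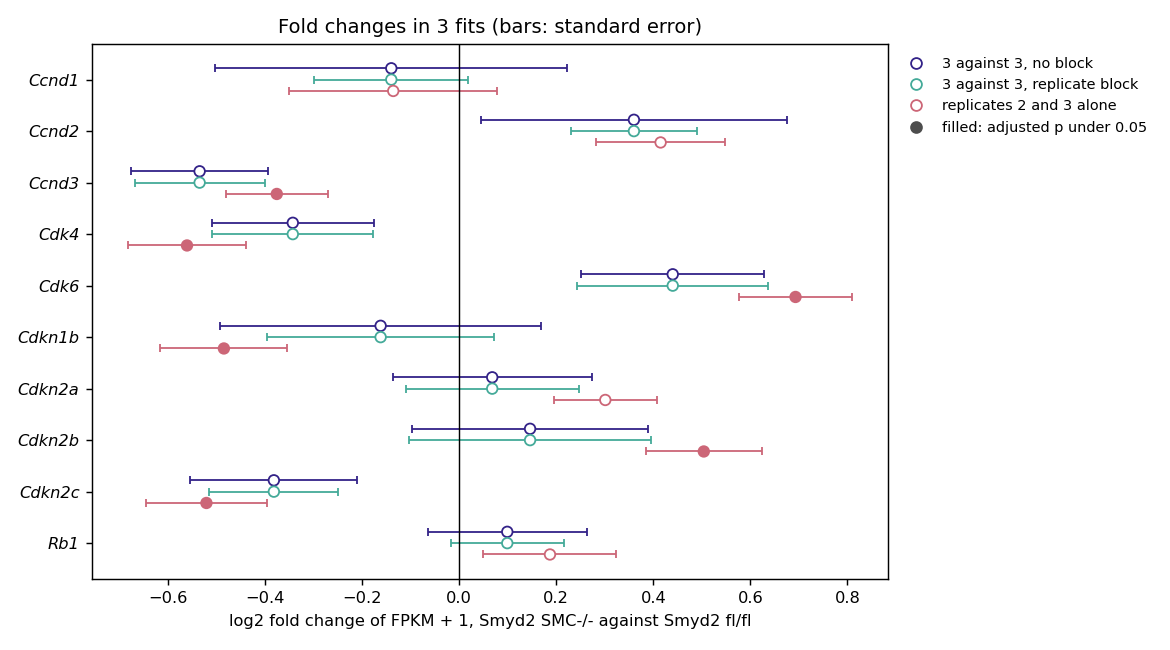
Log2 fold change of FPKM + 1 with its standard error (horizontal bars) for the 10 G1 genes in 3 limma fits, with filled points for an adjusted p under 0.05. No point is filled in the fits of all 6 libraries, and 6 are filled in replicates 2 and 3 alone, *Ccnd3*, *Cdk4*, *Cdkn1b* and *Cdkn2c* below 0 and *Cdk6* and *Cdkn2b* above 0.

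The knockout effect in the replicate 1 pair was then compared with that in replicates 2 and 3. For 6 of the 10 G1 genes (*Cdk4*, *Cdk6*, *Cdkn1b*, *Cdkn2a*, *Cdkn2b* and *Rb1*) the replicate 1 pair differed in the opposite direction from both other pairs, a pattern held by 23.1% of all tested genes. In 3 of the 10 (*Ccnd2*, *Ccnd3* and *Cdkn2c*) all 3 pairs differed in 1 direction, compared with 55.1% of all tested genes, and in *Ccnd1* pairs 2 and 3 differed in opposite directions. Pairs here are libraries of the same number in the labels. The methods name floxed littermates as controls, but no shared litter or other origin is stated for libraries of the same number. A limma interaction of genotype with replicate 1, chosen after the values were seen, was past an adjusted p of 0.05 for 1083 of 12565 genes (8.62%) and for 2 of the 10 G1 genes. These were *Cdkn1b*, with an effect higher by 0.97 in the replicate 1 pair (limma adjusted p = 0.0417), and *Cdkn2b*, with an effect of −1.07 relative to the other pairs (limma adjusted p = 0.0221). *Cdkn2a* (adjusted p = 0.0568), *Cdk6* (0.0638) and *Cdk4* (0.0953) did not pass in the same limma fit. In this fit the lone replicate 1 library of each genotype is assumed to vary like the other libraries. Some marker levels also divided the replicates: in the replicate 1 pair *Tagln* was 80.5 FPKM in *Smyd2* fl/fl and 12.5 FPKM in *Smyd2* SMC-/-, whereas it was 79.1 and 87.3 FPKM in the replicate 2 pair and 70.3 and 57.1 FPKM in the replicate 3 pair. Fibroblast marker *Dcn* was at 13.9 and 25.6 FPKM in the replicate 1 libraries and between 257 and 383 FPKM in the other 4. Not every marker did so. *Acta2* differed by −1.92, −1.35 and −1.38 on the log2 scale in pairs 1, 2 and 3, and *Dpt* by −5.07, −5.41 and −5.35. In each genotype *Dpt* was highest in replicate 1, where *Dcn* was lowest. The part of these markers in the different effect of the replicate 1 pair was not tested.

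Genes downstream of RB1 and E2F were read next, and no test set them against the G1 genes. Of 16 E2F-driven replication genes 15 had a negative log2 fold change, with a median of −0.68 beside −0.018 over all tested genes, or −0.58 beside 0.095 after rescaling to TPM. In 12 of the 16 the groups did not overlap and *Smyd2* SMC-/- was lower, compared with 15.0% of all tested genes. None was called by limma without the block (0 of 16, with 11 at an unadjusted p under 0.05), and 3 fell with the replicate block, where 5.72% of all tested genes did. For this list and those below, the background without the block was 2.44% called and 2556 of 12565 genes at an unadjusted p under 0.05. With the replicate block it was 10.4% called and 4028 of 12565 genes. With replicate 1 set apart by a block 8 of 16 fell (11.1% of all tested genes), and in replicates 2 and 3 alone 4 of 16 (17.2%). *Mcm4*, a subunit of the replicative helicase, had 45.3, 25.9 and 25.7 FPKM in controls 1, 2 and 3, against 19.0, 14.0 and 9.84 FPKM in knockouts 1, 2 and 3. Its log2 fold change was −1.12 (limma adjusted p = 0.0182 with the replicate block and 0.112 without it). The other 2 called with the block, named after their values were seen, were the licensing factor *Cdt1* (log2 fold change −0.81, limma adjusted p = 0.0392) and thymidine kinase *Tk1* (−0.92, limma adjusted p = 0.0350). *Pcna*, the sliding clamp of DNA polymerase and the most abundant gene of the list, had 75.3, 74.1 and 71.9 FPKM in controls 1, 2 and 3, against 53.9, 63.2 and 46.1 FPKM in knockouts 1, 2 and 3. Its groups did not overlap, but it was not called (limma adjusted p = 0.159, or 0.0714 with the block). *Mcm7* and *Mcm6* had log2 fold changes of −0.37 and −0.35 (limma adjusted p = 0.473 and 0.281 without a block), and *Mcm6* was called lower with replicate 1 set apart by a block (0.0481).

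All 10 mitotic genes had a negative log2 fold change, with a median of −0.50, or −0.40 after rescaling to TPM. Without the block 0 of 10 were called by limma, with 2 at an unadjusted p under 0.05, and with the replicate block 1 fell, *Cdk1* (log2 fold change −0.69, limma adjusted p = 0.0488), beside 5.72% of all tested genes. In replicates 2 and 3 alone, where 17.2% of all tested genes were called lower, 0 of 10 were called, and *Cdk1* had a limma adjusted p of 0.0916. *Cdk1*, the kinase of mitotic entry, had 28.2, 21.3 and 19.4 FPKM in controls 1, 2 and 3, against 16.0, 16.5 and 9.63 FPKM in knockouts 1, 2 and 3, with no overlap. In 4 of the 10 mitotic genes, *Cdk1* and *Top2a* among them, the groups did not overlap, compared with 15.0% of all tested genes with *Smyd2* SMC-/- lower. The replicate 2 pair differed least: the list summed to 239, 155 and 169 FPKM in controls 1, 2 and 3, against 156, 145 and 82.4 FPKM in knockouts 1, 2 and 3, and 4 of the 10 genes were slightly higher in knockout 2 than in control 2. *Mki67*, whose protein marks cycling cells, had 26.4, 14.8 and 22.4 FPKM in controls 1, 2 and 3, against 17.3, 14.7 and 8.97 FPKM in knockouts 1, 2 and 3. Its values overlapped (limma adjusted p = 0.307), and within each replicate number the *Smyd2* SMC-/- library was the lower one, by little in replicate 2. *Top2a* and *Birc5* had log2 fold changes of −0.52 and −0.76 (limma adjusted p = 0.275 and 0.246).

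Between these genes and the D cyclins stand cyclin E, cyclin A and CDK2, which complete RB1 phosphorylation. All 5 genes of this list had a negative log2 fold change, with a median of −0.34 (4 of 5 and −0.31 after rescaling to TPM), and 0 of 5 were called by limma with or without the replicate block, with 1 and 2 at an unadjusted p under 0.05. In replicates 2 and 3 alone 3 of 5 were negative, while *Ccne2* was at 0.176 and *Cdc25a* at 0.005. *Ccne2* differed by −1.365 in the replicate 1 pair and by 0.448 in the replicate 2 pair. *Cdk2* had 19.0, 14.2 and 15.3 FPKM in controls 1, 2 and 3, against 12.3, 11.2 and 9.19 FPKM in knockouts 1, 2 and 3, with no overlap (log2 fold change −0.53, limma adjusted p = 0.153, 0.0551 with the block and 0.0217 in replicates 2 and 3 alone). *Ccne1*, *Ccna2* and *Cdc25a* had log2 fold changes of −0.51, −0.31 and −0.074 and were not called. The 10 E2F and DP factors had a median of −0.155 (−0.043 after rescaling to TPM), and 0 of 10 were called by limma with or without the block, with 2 at an unadjusted p under 0.05 in either fit. Against this median *E2f6*, named after its values were seen, rose in replicates 2 and 3 alone (limma adjusted p = 0.0134) and with replicate 1 set apart by a block (0.0238). It had 6.13 to 7.75 FPKM in controls and 8.46 to 11.02 FPKM in knockouts. *E2f7* had 9.40, 2.63 and 3.81 FPKM in controls 1, 2 and 3, against 1.87, 2.23 and 1.24 FPKM in knockouts 1, 2 and 3. Its groups did not overlap, but it was not called (log2 fold change −1.04, limma adjusted p = 0.214). *Tfdp1* and *E2f4*, the most abundant, had means of 51.7 and 31.3 FPKM in *Smyd2* fl/fl and of 53.5 and 26.3 FPKM in *Smyd2* SMC-/-. *Tfdp2* had 56.7 FPKM in control 1, 30.2 FPKM in knockout 1 and between 11.2 and 12.4 FPKM in the other 4 libraries, and its interaction with replicate 1 was past the threshold (−0.85, limma adjusted p = 0.0297). *E2f1*, the activator most closely tied to S phase entry, had 26.6, 21.1 and 18.5 FPKM in controls 1, 2 and 3, against 23.7, 18.7 and 17.3 FPKM in knockouts 1, 2 and 3, a lower value in each pair but with overlapping groups (limma adjusted p = 0.742).

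**Figure D5:**
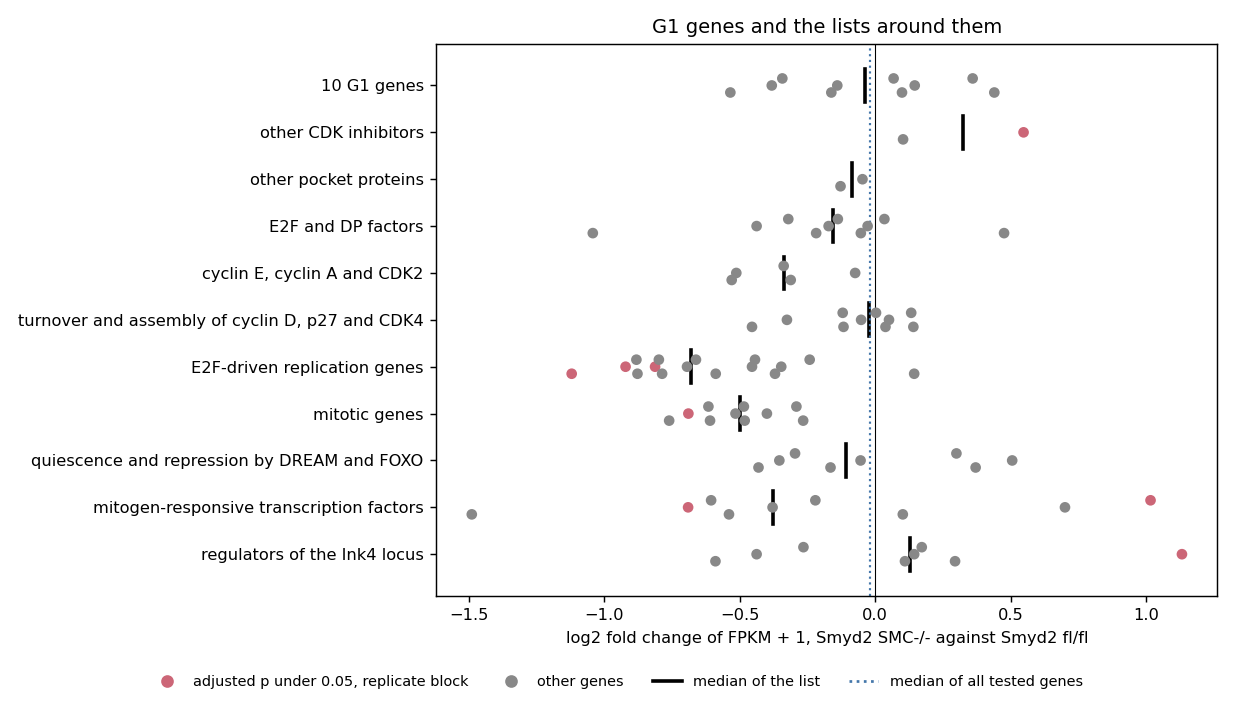
Log2 fold change of FPKM + 1 (horizontal axis, all 6 libraries, no block) of every tested gene of the 10 G1 genes and of 10 lists around them, 1 point per gene, with a bar at the median of each list and a dotted line at the median of all tested genes. The replication and mitotic lists lie almost wholly below 0, with medians of −0.68 and −0.50, while the 10 G1 genes spread on both sides with a median of −0.036, or 0.088 after rescaling to TPM.

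Regulators of the G1 genes were mostly not called. Of 10 genes for turnover and assembly of cyclin D, p27 and CDK4, 0 were called by limma with or without the replicate block (1 and 2 at an unadjusted p under 0.05), and 2, *Cdc37* and *Cks1b*, fell when a block set replicate 1 apart (limma adjusted p = 0.0456 and 0.0434), where 11.1% of all tested genes did. Their median was −0.024, or 0.094 after rescaling to TPM. *Cdc37*, the co-chaperone that brings kinases such as CDK4 to HSP90, had 119, 95.0 and 86.9 FPKM in controls 1, 2 and 3, against 69.8, 71.7 and 75.4 FPKM in knockouts 1, 2 and 3. Its groups did not overlap, with lower values in *Smyd2* SMC-/- (log2 fold change −0.46, limma adjusted p = 0.160 without a block). *Cks1b*, which helps SKP2 to mark p27Kip1 for degradation, had a log2 fold change of −0.33 (limma adjusted p = 0.489 without a block), and *Ccnh* and *Mnat1*, subunits of the CDK-activating kinase, had 0.003 and −0.12. The 8 genes of quiescence and repression by DREAM and FOXO had a median of −0.11, or 0.004 after rescaling to TPM, with 0 called by limma in both fits and 1 and 4 at an unadjusted p under 0.05. *Foxo3*, a factor that activates *Cdkn1b*, had 28.2, 21.8 and 24.3 FPKM in controls 1, 2 and 3, against 27.1, 14.2 and 18.0 FPKM in knockouts 1, 2 and 3. Its lowest values were those of *Smyd2* SMC-/- replicates 2 and 3 (limma adjusted p = 0.481, or 0.0263 in replicates 2 and 3 alone). The lowest values of *Cdkn1b* were in the same libraries. In the replicate 1 pair, however, *Cdkn1b* was higher in the knockout (53.8 to 75.6 FPKM) and *Foxo3* slightly lower. Any relation between *Foxo3* and *Cdkn1b* was not tested. Other genes of the list, named after their values were seen, went the other way from *Foxo3*. *Lin52* rose in replicates 2 and 3 alone (log2 fold change 0.56, limma adjusted p = 0.0177), and *Foxo1* was higher in the knockout of all 3 pairs without being called (3.17 to 4.95, 6.28 to 8.95 and 6.86 to 7.72 FPKM). *Rbbp4*, *Lin37* and *Foxo4* had log2 fold changes of −0.30, −0.054 and −0.17 and were not called.

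Mitogen-responsive transcription factors did not move together. Of 9 genes 0 were called by limma without the block, with 3 at an unadjusted p under 0.05. With the replicate block 1 rose and 1 fell, beside 4.72% and 5.72% of all tested genes. *Egr1*, an immediate early gene, rose, with 20.02, 37.1 and 36.3 FPKM in controls 1, 2 and 3, against 47.9, 69.5 and 70.6 FPKM in knockouts 1, 2 and 3 (log2 fold change 1.02, limma adjusted p = 0.0168 with the block and 0.116 without it). *Ets1*, named after its values were seen, fell (log2 fold change −0.69, limma adjusted p = 0.0416 with the block and 0.271 without it). *Ets2* was higher in replicate 1 than in the other replicates and lower in the knockout of every pair (115 to 91.7, 48.5 to 36.0 and 49.1 to 37.0 FPKM). It was called lower by limma in replicates 2 and 3 alone (adjusted p = 0.0163) and with replicate 1 set apart by a block (0.0264), but not without a block (0.721). *Fosl1* had 54.9, 6.18 and 6.67 FPKM in controls 1, 2 and 3, against 4.25, 5.48 and 3.08 FPKM in knockouts 1, 2 and 3. Its groups did not overlap, but it was not called (limma adjusted p = 0.344 without a block). The interaction with replicate 1 was past the threshold for *Fosl1* (−2.88, limma adjusted p = 0.00649), *Jun* (−1.55, 0.00577) and *Fos* (1.07, 0.0391), beside 8.62% of all tested genes. *Junb* had a log2 fold change of −0.22 (limma adjusted p = 0.504), and the median of the list was −0.38, or −0.26 after rescaling to TPM.

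Of 8 tested regulators of the Ink4 locus, 1 was called by limma both without and with the block, against 2.44% and 10.4% of all tested genes. *Cbx7*, a Polycomb protein known for repressing *Cdkn2a*, rose from 0.50, 0.30 and 0.31 FPKM in *Smyd2* fl/fl to 2.17, 1.51 and 2.39 FPKM in *Smyd2* SMC-/- replicates 1, 2 and 3. Every *Smyd2* SMC-/- library was above every control, and the log2 fold change was 1.13 (standard error 0.189, limma adjusted p = 0.0402, or 0.0259 with the replicate block). Such low levels rest on about 16 to 126 fragments per library, and FPKM + 1 understates the ratio of means, which was 5.47. The limma adjusted p was between 0.0533 and 0.183 without *Smyd2* fl/fl replicate 1, 2 or 3 or *Smyd2* SMC-/- replicate 2 or 3, with log2 fold changes from 1.045 to 1.26, and most of these omissions also left far fewer calls among all genes. *Ring1*, named after its values were seen, went the other way and fell in replicates 2 and 3 alone (log2 fold change −0.58, limma adjusted p = 0.00939). The median log2 fold change of the list was 0.13, or 0.25 after rescaling to TPM and −0.026 in replicates 2 and 3 alone.

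*Ccnd3* had the smallest p of the 10 G1 genes in the fits of all 6 libraries, though not in replicates 2 and 3 alone, and genes with a like pattern were sought among 8606 other tested genes averaging 5 FPKM or more. Over the 6 libraries, Pearson's r of log2(FPKM + 1) with *Ccnd3* was highest for *Nme3* (r = 0.995), *Pacsin2* (0.994) and *Ilk* (0.994), and lowest for *Pitpnm2* (−0.992) and *Rfx5* (−0.991). *Ilk*, the gene of integrin-linked kinase, had 128, 109.6 and 109.5 FPKM in controls 1, 2 and 3, against 77.1, 88.3 and 83.7 FPKM in knockouts 1, 2 and 3. Its 6 libraries rank as those of *Ccnd3* do, with replicate 1 at both extremes, and *Pitpnm2* mirrors it, with 7.78, 9.80 and 10.0 FPKM in controls 1, 2 and 3, against 18.6, 14.3 and 15.7 FPKM in knockouts 1, 2 and 3. These are the extremes of many genes over 6 libraries that fall into 2 genotypes, and the values describe likeness only.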

How the data were processed

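The authors filtered poly-A, paired-end BGISEQ-500 reads with SOAPnuke, aligned them with HISAT and Bowtie2, estimated expression with RSEM and deposited FPKM values; tool versions and genome build are not given in the sources used here. The design of the analysis held a test for counts and one for FPKM, and the FPKM test was used. Genes averaging 0.5 FPKM or more were compared as log2(FPKM + 1) with limma 3.58.1 in R 4.3.3 and Benjamini-Hochberg adjustment over 12565 genes. Other steps used Python 3.11.15. Replicate numbers came from the labels; deviations of same-numbered libraries correlated by 0.615, 0.460 and 0.528, and a replicate block was also fitted. Flox 2 with KO 3 (0.461) and Flox 3 with KO 2 (0.439) correlated about as highly as the pair of replicates 2, so the values set replicate 1 apart more clearly than they pair replicates 2 and 3. Alternatives were a pseudocount of 0.1, no filter, each library left out, a block for replicate 1, replicates 2 and 3 alone, TPM and quantile normalization. The interaction was added after the data were seen. The members and gene lists were chosen with earlier results of these data known. From each list at most 4 genes were named, those called or, where none was, the most abundant. Genes named for other reasons include those called only with the replicate block, *Tagln*, *Dcn*, *Lum*, *Pecam1* and other markers. *Ccne2*, *E2f7*, *Fosl1*, *Jun* and *Fos* were also named outside this rule. RefSeq positions and promoter windows (GRCm38.p6) were matched by gene, 7 of 10 members having a window. Depth was approximated from 4291 genes.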

Additional observations from a re-analysis of the deposited data

Results flagged for a closer look

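For *Cdkn1b* the knockout effect on log2(FPKM + 1) was higher by 0.97 in the replicate 1 pair than in replicates 2 and 3. For *Cdkn2b* the same difference was −1.07. Both come from an interaction added after the data were seen, in which the 1 replicate 1 library of each genotype is assumed to vary like the others.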

How the results depend on the processing

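Of all tested genes 306 were called, 1312 with the replicate block, 2550 with a block for replicate 1, 3650 in replicates 2 and 3 alone and 34 to 686 with single libraries left out. Of the members 0 were called, 1 with a block for replicate 1 and 6 in replicates 2 and 3 alone; the replicate block changed no call of the members. Past the study cutoffs were 53 genes, 20 without a filter, 374 with a block for replicate 1, 652 in replicates 2 and 3 alone and 4 to 107 with single libraries left out. In replicates 2 and 3 the knockout minus control share was 1.87 points for *Cdk6* (1.17 with all libraries), 4.06 for *Cdkn2b* (1.75), 5.78 for *Cdkn2a* (3.29), −9.84 for *Cdkn2c* (−5.04) and −3.5 for *Ccnd1* (−1.17); with single libraries left out it ran from −13.0 to −3.38 for *Ccnd3* (−9.29), −5.07 to 0.922 for *Ccnd1*, 0.581 to 6.51 for *Cdkn2a*, 0.555 to 2.99 for *Cdkn2b* and −9.49 to −2.29 for *Cdkn2c*. With single libraries left out, log2 fold changes ran from −0.45 to 0.15 for *Ccnd1*, −0.55 to 0.12 for *Cdkn1b*, −0.079 to 0.29 for *Cdkn2a*, −0.004 to 0.38 for *Cdkn2b* and −0.038 to 0.21 for *Rb1*, crossing 0. The cause was not tested. Rescaling to TPM with all libraries gave −0.017 for *Ccnd1*, −0.042 for *Cdkn1b*, 0.192 for *Cdkn2a*, 0.272 for *Cdkn2b* and 0.225 for *Rb1*. Among the 10 G1 genes depth limits *Cdkn2b* most, with about 140 fragments in its lowest library.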
